A study of Mus musculus with 3 samples.

Results

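Collagens, laminins and the genes that bind, cut and remodel them were examined in neural retina of mice lacking Rp1, which encodes a protein of the photoreceptor cilium. The members were all probe sets whose single gene symbol is a collagen, laminin, Timp, Mmp, Adamts, Sparc, thrombospondin, fibrillin, fibulin, nidogen, lysyl oxidase or testican symbol, or is 1 of 15 further matrix genes such as Fn1, Agrn and Eln. There were 118 such probe sets for 83 genes, out of 8251 genes with a named probe set on the array, and all 118 symbols are still in use. The study consisted of 3 Affymetrix U74Av2 arrays, all in 1 group of Rp1-/- mice on a mixed 129/SvEv and C57BL/6 background. Neural retinas were taken at postnatal day 10 between 1 and 2 pm, and each array held RNA pooled from 3 to 4 mice. No array of another genotype was analysed here, so every difference below is between pools of Rp1-/- retina. The title of the pool 1 array lacks the tag for the mutated gene that the other titles carry, although its description gives the same genotype. No probe set carried the symbol Rp1 in the annotation used, so its loss was not checked. The labels give no replicate numbers, the pools were numbered 1 to 3 only to name them, and any p-value measures the spread between these 3 samples.

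The extracellular matrix of the retina is concentrated in basement membranes, thin sheets in which a laminin polymer and a network of type IV collagen are joined by nidogen, perlecan and agrin. They line the vitreal surface as the inner limiting membrane, surround the blood vessels, and lie under the pigment epithelium in Bruch's membrane. Between neurons the matrix is rich in hyaluronan and chondroitin sulphate proteoglycans instead of collagen fibres. Matrix metalloproteinases and ADAMTS proteases cut these proteins, and the tissue inhibitors of metalloproteinases (TIMPs) hold the metalloproteinases in check.

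Signals are in scaled intensity units, and a probe set binds its target with its own strength, so the signals do not rank the genes by amount of RNA. From 19 bacterial and yeast control probe sets a floor was taken for each array, at 100.5, 124.8 and 120.4 units in pools 1, 2 and 3. A probe set whose mean signal exceeded the mean floor of 115.2 is called measured, and 64 of the 118 matrix probe sets, standing for 53 genes, met this. Just inside this limit were Col12a1, Lamb1 and Loxl1, with mean signals of 128.3, 126.6 and 123.8, and just outside were Nid1, Bcan and Acan, with 111.2, 110.2 and 102.6. In bulk tissue, fewer cells of a type and less RNA per cell cannot be told apart.

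Matrix probe sets were above the floor less often than probe sets as a whole. Of the 118, 41 (34.7%) were above it in all 3 pools, against 57.9% of 12422 probe sets. In no pool were 37 (31.4%) above it, against 23.3% of all probe sets. Pool 1 had 71 matrix probe sets (60.2%) above the floor, pool 2 had 52 (44.1%) and pool 3 had 62 (52.5%), while the shares of all probe sets were 69.7%, 65.5% and 66.2%. The 30 genes that were not measured had signals between 10.5 and 181.5 units, and 17 of them were above the floor in no pool by any probe set.

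**Figure D1:**
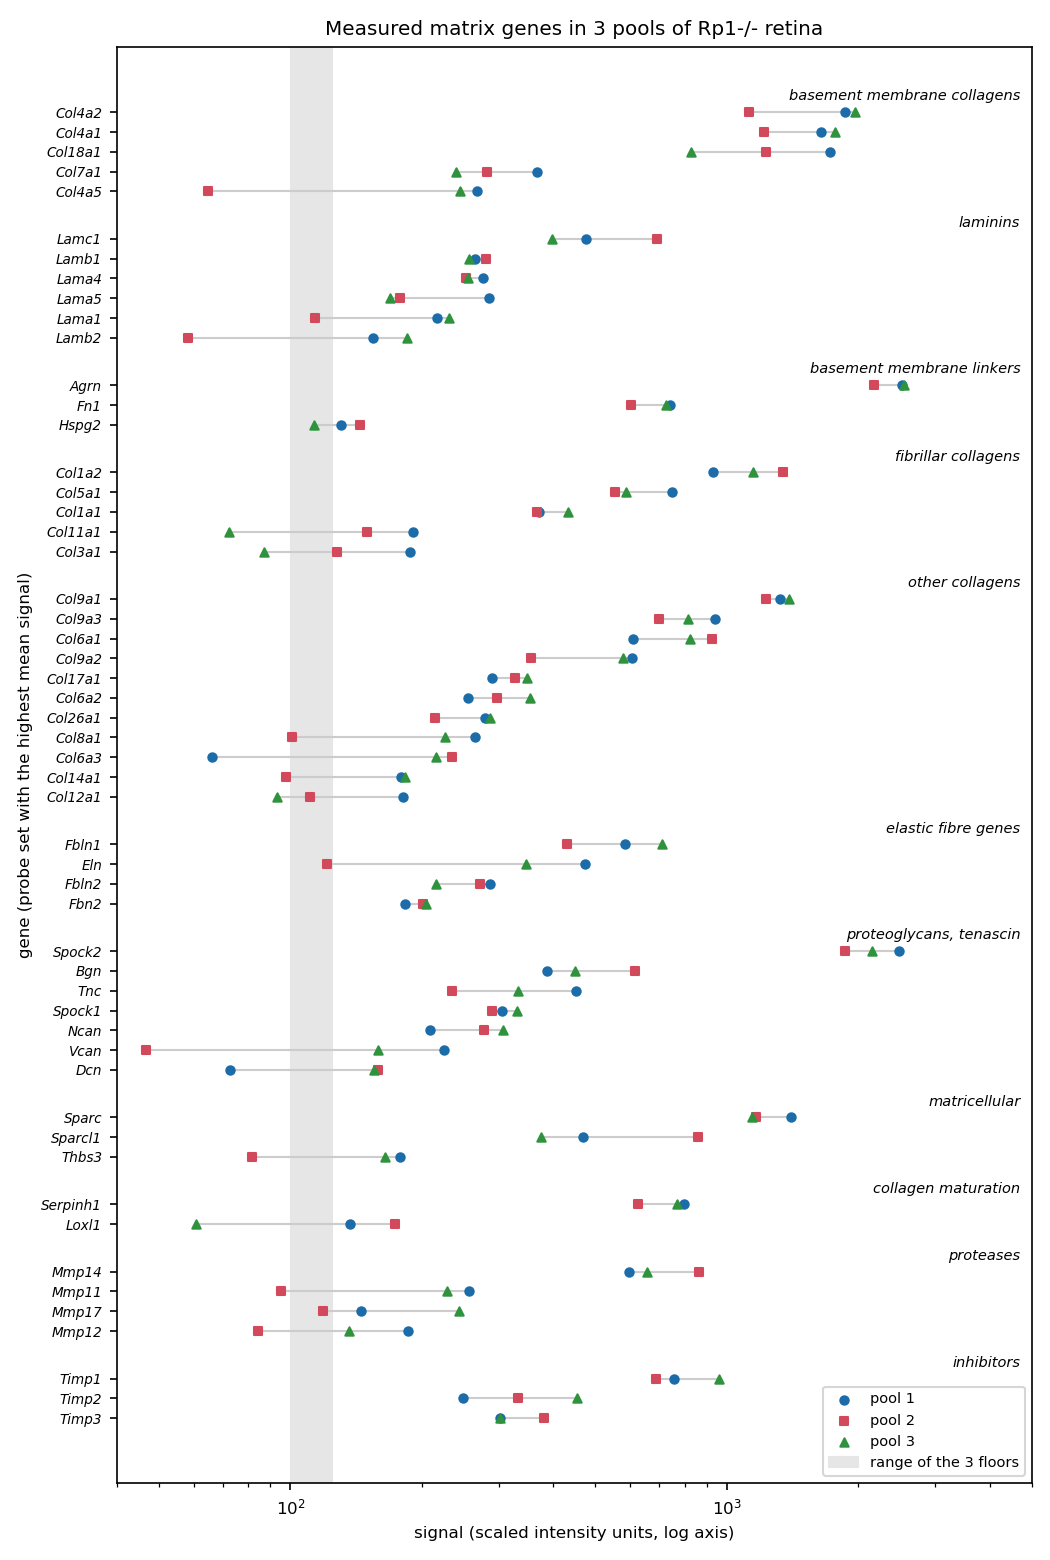
Signal of the 53 measured matrix genes in each of the 3 pools, on a log axis in scaled intensity units, grouped by role, with the probe set of highest mean signal for each gene and the range of the 3 floors in grey. Agrn and Spock2 lie between 1861.7 and 2539.3 units in every pool, and the square of pool 2 is the leftmost point for 28 genes.

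The type IV collagen chains that form most basement membranes were detected in every pool, and both had their lowest signal in pool 2. Col4a1 had signals of 1646.6, 1216.6 and 1767 in pools 1, 2 and 3. Col4a2, whose product joins that of Col4a1 in the same triple helix, had 1862, 1125 and 1969.2. For each gene pool 3 was highest, with pool 1 close to it and pool 2 lower. The log2 difference between pools 2 and 3 was -0.54 for Col4a1 and -0.81 for Col4a2, and neither was called variable (limma, adjusted p = 0.99 for both). The SD of log2 signal was 0.29 for Col4a1 and 0.44 for Col4a2, against a median of 0.21 over all genes in the top quartile of mean signal.

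Col4a1 and Col4a2 are neighbours on mouse chromosome 8 and are read in opposite directions, and since their signals kept the same order over the pools, their promoter windows are shown. In the RefSeq annotation of build GRCm38.p6 their starts lie 21 bases apart, that of Col4a1 at the higher coordinate. Since Col4a1 is read toward lower coordinates and Col4a2 toward higher ones, the annotated transcripts overlap at their starts. The bases before each start thus lie within the other gene. The windows, each with 250 bases before and 50 after the start, are chr8:11312777-11313076 on the minus strand for Col4a1 and chr8:11312555-11312854 on the plus strand for Col4a2, and they share 78 bases. Sequences are 5′ to 3′ on the gene's own strand, and capitals mark the GC box GGGCGG and the CCAAT box CCAAT on either strand.
Col4a1: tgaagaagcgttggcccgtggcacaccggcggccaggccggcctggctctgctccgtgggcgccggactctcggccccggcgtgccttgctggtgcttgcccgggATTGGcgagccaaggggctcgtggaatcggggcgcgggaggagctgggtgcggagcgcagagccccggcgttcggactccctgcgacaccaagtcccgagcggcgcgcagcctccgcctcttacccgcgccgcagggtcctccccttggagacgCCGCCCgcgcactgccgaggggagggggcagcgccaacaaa
Col4a2: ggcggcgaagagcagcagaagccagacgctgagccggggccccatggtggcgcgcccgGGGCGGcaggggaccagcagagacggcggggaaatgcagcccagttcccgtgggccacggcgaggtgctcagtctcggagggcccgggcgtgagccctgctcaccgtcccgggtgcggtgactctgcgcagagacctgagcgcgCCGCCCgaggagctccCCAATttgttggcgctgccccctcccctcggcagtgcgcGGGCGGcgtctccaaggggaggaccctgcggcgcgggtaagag
The Col4a1 window was 74% G and C and held 1 GC box at position 9 and 1 CCAAT box at position -145, counting the annotated start as 0. The Col4a2 window was 73.7% G and C and held 3 GC boxes, at -192, -48 and 7, and 1 CCAAT box at -32. The GC box at 9 in the Col4a1 window and the one at 7 in the Col4a2 window are the same bases of the shared stretch, read on opposite strands. Of all 32851 promoter windows of this length, 35.7% held a GC box and 37.4% a CCAAT box. Among the 66 windows of the 57 matrix genes in the table the shares were 59.1% and 33.3%. Neither window held the TATA box TATAAA, which 24.2% of matrix windows and 13.6% of all windows held.

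Col18a1, the collagen XVIII gene whose C-terminal fragment is endostatin, had 5 measured probe sets, and 4 of them were highest in pool 1. The set with the highest mean had 1723.4, 1227.7 and 829.3 in pools 1, 2 and 3. Its pool 1 signal was 2.08-fold that of pool 3, with pool 2 between them (limma, adjusted p = 0.83). A second set, of the class marked g, kept that order at 448.7, 255.7 and 216.3. Another, of the s class, had 410.9 in pool 1 and was under the floor in pools 2 and 3, at 94.3 and 103.7, and pool 1 was at least 3.41-fold higher than pool 3 (limma, adjusted p = 0.76). The f-class set also passed the floor in pool 1 alone, at 199. The remaining set ran otherwise, with 184.6, 145.5 and 199.6, pool 3 being highest.

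Col18a1 is annotated with a pair of starts 52825 bases apart on the minus strand of chromosome 10, which give proteins with different N-termini. Both windows are shown because the probe sets of the gene disagreed, and the arrays do not tell which start was in use. They are chr10:77166481-77166780 for the upstream start and chr10:77113656-77113955 for the downstream one, with capitals as above.
Col18a1 upstream start: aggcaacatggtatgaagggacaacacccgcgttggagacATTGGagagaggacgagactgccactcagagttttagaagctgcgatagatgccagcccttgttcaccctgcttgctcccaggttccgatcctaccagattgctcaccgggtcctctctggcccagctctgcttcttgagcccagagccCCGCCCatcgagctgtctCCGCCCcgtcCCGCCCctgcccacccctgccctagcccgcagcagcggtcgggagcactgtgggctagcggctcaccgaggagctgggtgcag
Col18a1 downstream start: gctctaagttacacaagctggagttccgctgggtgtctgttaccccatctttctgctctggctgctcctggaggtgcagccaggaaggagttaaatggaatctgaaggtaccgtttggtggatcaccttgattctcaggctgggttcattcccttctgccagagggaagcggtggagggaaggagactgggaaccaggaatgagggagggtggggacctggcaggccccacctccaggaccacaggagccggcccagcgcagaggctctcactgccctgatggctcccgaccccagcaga
The upstream window was 63.3% G and C, with 3 GC boxes at -61, -43 and -33 and 1 CCAAT box at -210. In the downstream window, 59.7% G and C, none of the 3 motifs was found.

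The other basement membrane collagens were lower in signal or not measured. Col7a1, the collagen of anchoring fibrils, had 366.7, 282.5 and 239.3 in pools 1, 2 and 3. Col4a5, a chain of specialised basement membranes, had 267.5 in pool 1 and 244.4 in pool 3 but was under the floor in pool 2 at 64.7. Against the floor of pool 2, Col4a5 was at least 2.14-fold higher in pool 1. Col4a3 and Col4a4, neighbouring genes whose chains assemble with that of Col4a5, were under the floor in every pool, as was Col15a1.

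Laminins are trimers of an alpha, a beta and a gamma chain, and at least 1 gene of each kind was above the floor in all pools. Lamc1, the most widely used gamma chain, had 476.6, 692.8 and 398.5 in pools 1, 2 and 3 from an f-class set. In that set pool 2 was highest and pool 3 lowest. Lamb1, also from an f-class set, had 265, 280 and 256.2, an SD of 0.06 on the log2 scale. Lama4, the alpha chain of vessel walls, had 275.6, 251.9 and 255.7, an SD of 0.07 on the same scale. Both were among the steadiest matrix genes. Lama5 had 285.5, 178 and 169.5, with pool 1 highest. Lama1, an alpha chain of the inner limiting membrane in mice, and Lamb2, a beta chain of the retinal matrix, were above the floor in pools 1 and 3 and under it in pool 2. Lama2, Lama3 and Lamb3 were not measured.

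The second measured sets of Lama4 and Lamb1 were weaker and had larger SDs than the first. A second Lama4 set had 166.8 and 208.7 in pools 1 and 3 and 18.6, under the floor, in pool 2. The second Lamb1 set had 82.1, 172.8 and 125, with pool 1 under the floor. Neither was called variable (limma, adjusted p = 0.99 for both). Second sets of Lama5 and Lamc1 were under the floor in every pool.

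The proteins that bind the laminin and collagen networks together differed in whether they were measured. Agrn, a heparan sulphate proteoglycan best known for clustering receptors at the neuromuscular synapse, had 2520.4, 2174.2 and 2539.3 in pools 1, 2 and 3. Its second probe set read 2072.1, 1882.2 and 1741. The SD was 0.13 on the log2 scale for each set, although pool 3 was highest in the first and lowest in the second. Fn1 (fibronectin) had 739.6, 602.9 and 725.1. Hspg2 (perlecan) was near the floor at 130.8, 144.2 and 113.4, and passed it in pools 1 and 2. Nid1 passed the floor in pools 1 and 3 without reaching a mean above it, and Nid2 was under it in every pool.

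Among fibril-forming collagens, Col1a1, Col1a2 and Col5a1 were above the floor in all pools by their set of highest mean signal. Col1a2 had 929.7, 1346 and 1149.8 in pools 1, 2 and 3, from a probe set of the r class. Another Col1a2 set passed the floor in pool 2 alone, at 232, and was not measured, so pool 2 was highest in both. Col1a1, whose chain pairs with that of Col1a2, had 372.1, 366.7 and 431.6. Col5a1, which controls fibril width, had 748.4, 554 and 586.3. Second sets of Col1a1 and Col5a1 were not measured. Col11a1 was above the floor in pools 1 and 2, at 190.6 and 150, and at 72.5 in pool 3. Col3a1 likewise passed it in pools 1 and 2, while its other sets were under the floor in every pool. Col2a1, the main fibril collagen of the vitreous, was under the floor in every pool, and Col5a2 and Col11a2 were not measured.

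Type IX collagen coats type II fibrils in the vitreous and in cartilage. By the set of highest mean signal, all its chains were detected in every pool. Col9a1 had 1321.1, 1231.8 and 1386.2 in pools 1, 2 and 3, an SD of 0.09 on the log2 scale. Col9a3 had 937.1, 699.2 and 813.3, and its other set, of the i class, was under the floor in every pool. Col9a2 had 605.1, 355.6 and 577.7. Each of the 3 genes was lowest in pool 2, by the least for Col9a1 and by the most for Col9a2, whose log2 difference was 0.77 for pool 1 minus pool 2 (limma, adjusted p = 0.99).

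Type VI collagen, which forms beaded microfibrils, had its lowest signals in pool 1. Col6a1 had 610.9, 924.8 and 825.1 in pools 1, 2 and 3. Col6a2, its neighbour on chromosome 10, had 255, 297.5 and 354.8. Col6a3 was under the floor in pool 1 at 66 and had 234.4 and 216 in pools 2 and 3, which put pool 2 at least 2.33-fold above pool 1 (limma, adjusted p = 0.99). Pools 2 and 3 lay above pool 1 in each of the 3 chains, and a second Col6a1 set near the floor did not follow this.

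Of the remaining collagens, Col8a1 was the only measured one with a difference over 2-fold. Col8a1, a short-chain collagen of Descemet's membrane and vessels, had 265.5 and 225.9 in pools 1 and 3 and 100.9, under the floor, in pool 2. Pool 1 exceeded pool 2 at least 2.13-fold (limma, adjusted p = 0.99). Col17a1, a transmembrane collagen of epithelia, and Col26a1 were above the floor in all pools, and Col14a1 in pools 1 and 3. Col12a1 had 181.3, 111 and 93.2 in pools 1, 2 and 3, above the floor in pool 1 alone. Its other probe set had 104.4, 118.3 and 162.2, under the floor in pool 2, so that pool 1 was highest in the first and lowest in the second. Col10a1, Col13a1, Col19a1 and Col22a1 were not measured.

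Elastin and its microfibril partners included Eln, which had the largest spread of the 53 genes when each is taken by its probe set of highest mean signal. Eln had 473.6 in pool 1, 121.2 in pool 2 and 346 in pool 3. Pool 2 was just under its floor of 124.8, and pool 1 was at least 3.79-fold higher. The test of variability gave an adjusted p of 0.63 (limma), and a second Eln probe set was under the floor in every pool. Fbln1 (fibulin-1, which binds elastin and basement membranes) had 583, 430.9 and 708.5 in pools 1, 2 and 3 from its g-class set. Another Fbln1 set read 587.2, 441.3 and 301.3, with pool 3 lowest instead of highest. A further Fbln1 set passed the floor in pool 1 alone, at 167.2, and an r-class set in no pool. Fbln2 had 287.3, 271.8 and 215.8. Fbn2, a fibrillin of developing microfibrils, was steady at 183.1, 201.5 and 205.

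Proteoglycans of the neural matrix were led in signal by Spock2 (testican-2, a proteoglycan made mainly in brain). Spock2 had 2473.8, 1861.7 and 2150.8 in pools 1, 2 and 3. A second, f-class set of Spock2 had 144.9, 388 and 399.7, a range of 2.76-fold in which pool 1 was lowest instead of highest (limma, adjusted p = 0.83). Spock1 had 305, 289.9 and 331.2. Tnc (tenascin-C, an adhesion-modulating glycoprotein) had 451, 234.5 and 331.7, with pool 1 highest and pool 2 lowest. Another Tnc set was under the floor in every pool. Bgn (biglycan) had 386.2, 616.1 and 448.8 from its f-class set, and a different Bgn set read 419.1, 216.1 and 288.9. The order of the pools was reversed between these, pool 2 being highest in the first and lowest in the second.

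Of the remaining proteoglycans, among them those that bind hyaluronan, all but Ncan were under the floor in 1 or more pools. Ncan (neurocan) had 208.6, 277.7 and 306.8 in pools 1, 2 and 3 and was the only one above the floor in all of them. Vcan (versican) passed it in pools 1 and 3 and was at 46.8 in pool 2. Dcn (decorin), which binds collagen fibrils, was at 72.6 in pool 1 and passed it in pools 2 and 3. Acan (aggrecan), Bcan (brevican) and Lum (lumican, the neighbour of Dcn) were not measured, and 1 probe set of Ncan was under the floor in every pool.

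The matricellular proteins Sparc and Sparcl1, which bind collagen, differed in spread. Sparc had 1401.5, 1164 and 1142.2 in pools 1, 2 and 3, an SD of 0.16 on the log2 scale. Sparcl1 had 468.5, 858.9 and 375.7, so that pool 2 stood above the others. Its pool 2 signal was 2.29-fold that of pool 3 (limma, adjusted p = 0.83). Thbs3, a thrombospondin, had 178.3 and 165.1 in pools 1 and 3 and 81.5, under the floor, in pool 2, and Thbs2 was not measured.

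Serpinh1, the collagen chaperone of the endoplasmic reticulum, was measured in all pools at 796.3, 625.8 and 770.2 in pools 1, 2 and 3. Pool 2 was again lowest, as it was for Col4a1 and Col4a2. Loxl1, a lysyl oxidase needed for elastic fibres in mice, had 136.8, 173.9 and 60.8, the last under the floor. Lox itself, which cross-links collagen and elastin, was not measured.

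Of 14 protease genes, 4 were measured and 1 was above the floor in all pools. That was Mmp14, a membrane-anchored metalloproteinase that activates Mmp2, with 596.8, 863.6 and 656.8 in pools 1, 2 and 3. Mmp11 had 256.2 and 228.3 in pools 1 and 3 and 95.2, under the floor, in pool 2, and was at least 2.05-fold higher in pool 1 than in pool 2 (limma, adjusted p = 0.99). Mmp17, which is held to the membrane by a lipid anchor, had 144.9, 118.8 and 243.3. Mmp12, the macrophage elastase, had 185.6, 84.4 and 136.3 from a probe set of the r class. Another Mmp12 set, of the s class, was under the floor in every pool, at 25.5, 46.7 and 32. By the measured sets, pool 2 was the lowest and was under the floor for Mmp17 and Mmp12, as for Mmp11.

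Most secreted metalloproteinases were not measured. A cluster on chromosome 9 holds Mmp13, Mmp12, Mmp3, Mmp10, Mmp8 and Mmp7. Apart from the r-class set of Mmp12, their probe sets stayed under the floor, except Mmp3 in pool 1 at 137.1. The gelatinases Mmp2 and Mmp9 each passed the floor in pool 2 alone and by 1 of their sets, at 134.4 and 139.6. Mmp16, Mmp24 and Adamts1 were under it in every pool.

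All 3 inhibitor genes were above the floor in every pool. Timp1 had 756.9, 686.7 and 958.2 in pools 1, 2 and 3. Timp2 had 248.3, 332.4 and 454, with pool 1 lowest and pool 3 highest (limma, adjusted p = 0.99). Timp3, the matrix-bound inhibitor mutated in human Sorsby fundus dystrophy, had 302.2, 381.7 and 301.4. Other sets of Timp1 and Timp2 were under the floor in every pool. Timp1 lies within the synapsin gene Syn1 and Timp3 within Syn3, and whether transcripts of these genes reach the probe sets was not tested.

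Across the family, no probe set was called variable against others of its intensity. The count was 0 of 64 by limma's test after Benjamini-Hochberg adjustment at a threshold of 0.05, against 18 of 8327 measured probe sets (0.216%). At an unadjusted p under 0.05 there were 5 of 64 (7.81%), against 5.34% of all. The 5 were a set each of Eln, Spock2 and Sparcl1 and a pair of Col18a1 sets, with limma adjusted p between 0.63 and 0.83. The test misses most changes near 2-fold: in simulated data it called 8 of 50 probe sets changed 2-fold in 1 pool. Those data gave probe sets of like signal the same SD, and the real arrays may allow fewer calls. Eln, at least 3.79-fold higher in pool 1 than in pool 2, was not called. A probe set that was not called is therefore not shown to be steady.

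Differences over 2-fold were about as common among matrix genes as elsewhere. In some pair of pools 10 of 64 matrix probe sets (15.6%) differed by more than 2-fold after flooring, against 13.2% of all measured ones. They belonged to Col18a1 (3 sets), Col4a5, Col8a1, Col6a3, Eln, Spock2, Sparcl1 and Mmp11, and 4 of the 10 were above the floor in all pools. Between pools 1 and 2 there were 7 (10.9%, against 6.24% of all), 5 of them higher in pool 1 (2.73% of all probe sets) and 2 higher in pool 2 (3.52% of all). Between pools 1 and 3 there were 5 (7.81%, against 6.92%), 3 higher in pool 1 (3.11% of all) and 2 higher in pool 3 (3.81% of all). Between pools 2 and 3 there were 2 (3.12%, against 5.1%), 1 higher in pool 2 (2.73% of all) and 1 higher in pool 3 (2.38% of all). The median SD of log2 signal was 0.29 over the 53 genes, against 0.26 over all 6210 measured genes. By quartile of mean signal, from low to high, it was 0.35, 0.23, 0.28 and 0.24 for matrix genes, against 0.36, 0.28, 0.23 and 0.21 for all genes.

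**Figure D2:**
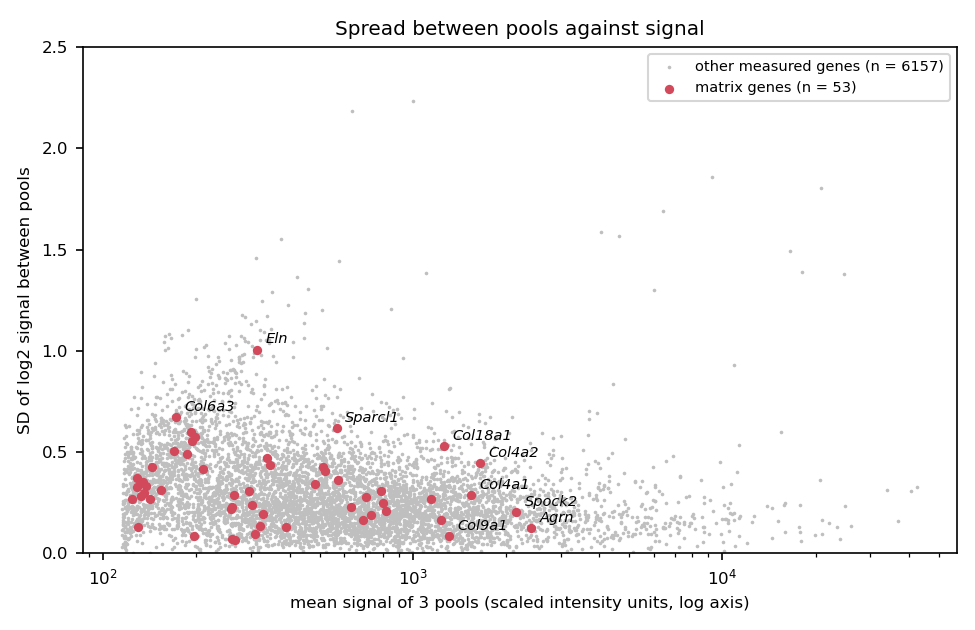
SD of log2 signal between the 3 pools against mean signal in scaled intensity units (log axis), with matrix genes in red and the other measured genes in grey. Eln has the highest SD of the matrix genes at 1.01, and Col9a1 and Agrn lie low at 0.09 and 0.13.

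More matrix genes had their lowest signal in pool 2 than in either other pool, a pattern singled out after the values were seen. Pool 2 was lowest for 28 of 53 genes (52.8%), against 33.8% of all 6210 measured genes, pool 1 for 11 (20.8%, against 33.7%) and pool 3 for 14 (26.4%, against 32.6%). The highest signal was in pool 1 for 23 genes (43.4%, against 34.6% of all), in pool 2 for 12 (22.6%, against 33.6%) and in pool 3 for 18 (34%, against 31.8%). Among the 35 genes above the floor in all pools, 17 were lowest in pool 2, against 33.7% of all such genes. The median log2 difference over the 53 genes was 0.29 for pool 1 minus pool 2, against -0.0028 over all genes. For pool 1 minus pool 3 it was 0.05, against -0.0022, and pool 2 minus pool 3 gave -0.17, against 0.0081. With no filter on low values, where probe sets under the floor take floors that differ between arrays, all 3 medians changed sign, to -0.079, -0.12 and 0.05. The median for pool 1 minus pool 3 was also below 0 with the floor at the median control (-0.019) and among probe sets above the floor in all pools (-0.011). By role, pool 2 was lowest for 3 of 5 basement membrane collagens, 3 of 6 laminins, 2 of 3 basement membrane linkers, 2 of 5 fibrillar collagens and 6 of 11 other collagens. It was lowest for 2 of 4 elastic fibre genes, 4 of 7 proteoglycans and tenascins, 1 of 3 matricellular genes, 1 of 2 collagen maturation genes, 3 of 4 proteases and 1 of 3 inhibitors. No test was made of these counts, which describe 3 arrays.

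**Figure D3:**
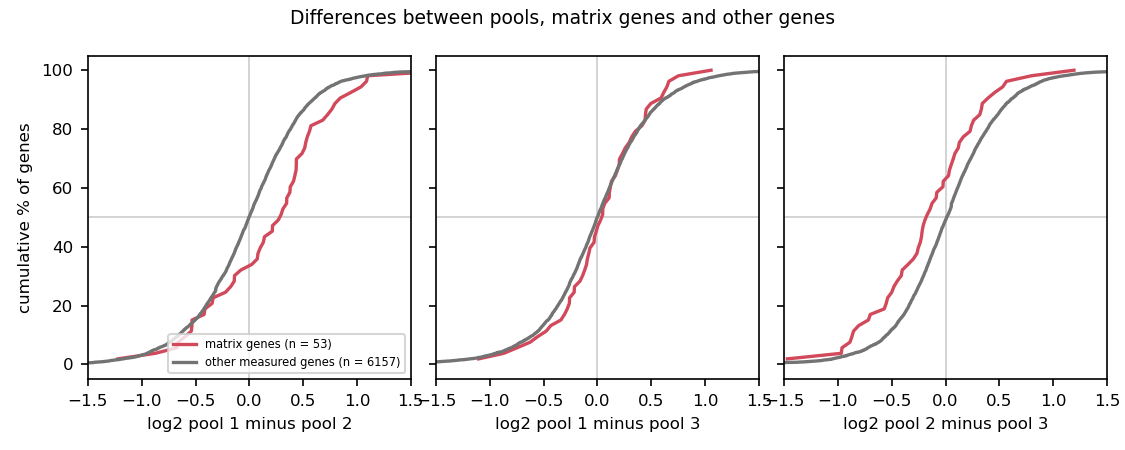
Cumulative percent of genes against the log2 difference between each pair of pools, for the 53 matrix genes (red) and the other measured genes (grey), with axes cut at 1.5 either way. The red curve has its median at 0.29 in the panel of pools 1 and 2 and at -0.17 in that of pools 2 and 3, right and left of the grey medians near 0.

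Lens markers also had their lowest signals in pool 2. Of 13 listed lens genes 11 were measured, all highest in pool 3 and lowest in pool 2, and their summed signals were 94914, 25460 and 203614 in pools 1, 2 and 3. That order, pool 3 then pool 1 then pool 2, was held by 13 of the 53 matrix genes (24.5%), among them Col4a1 and Col4a2, against 16% of all measured genes. The order with pools 1 and 3 exchanged was held by 15 (28.3%), against 17.8%. The part of lens tissue in the matrix signals was not tested.

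Summed markers of other cell types had a narrower range over the pools, and in no list did all genes share 1 order. The 7 measured endothelial genes of 10 listed summed to 2413, 2366 and 3102 in pools 1, 2 and 3, and 5 of them were highest in pool 3, while 3 were lowest in pool 1, 2 in pool 2 and 2 in pool 3. The 4 measured pericyte and smooth muscle genes of 7 summed to 765, 732 and 1013, and 1 of them was lowest in pool 2. The 3 measured astrocyte genes of 4 summed to 1496, 1336 and 1687, with 1 lowest in pool 2, and the 7 microglia genes to 2403, 2392 and 2557, with 3 lowest in pool 2. Of 6 genes listed for fibroblasts, sclera and cornea, 3 were measured, with sums of 1462, 1269 and 1884, and Krt14 and Twist1 were under the floor in every pool. Pdgfra is in both this list and the astrocyte list, at 986.1, 788 and 1173.4 in pools 1, 2 and 3. It makes up most of both sums and is counted in both as lowest in pool 2. The 7 measured Müller glia genes of 9 summed to 21162, 18895 and 21078, with Vim under the floor in every pool. Apoe, at 6567.3, 4017.7 and 5037.6, weighs heavily in that sum. Apoe, Dkk3 and Clu were lower in pool 2 than in pool 1, while Rlbp1, Glul, Car2 and Aqp4 were higher. The median log2 difference of these Müller glia genes was -0.14 for pool 1 minus pool 2. For pigment epithelium 4 of 9 genes were measured, summing to 1434, 1381 and 2221. Of these, 2 fibroblast, 3 Müller glia and 2 pigment epithelium genes were lowest in pool 2. For blood, 3 of 4 genes were measured and summed to 20541, 12672 and 10546. Of 8 listed rod genes, the 7 with a probe set were above the floor in every pool, with a sum highest in pool 2 (70081, 88098 and 81273). Of these rod genes 6 were highest in pool 2 and 6 were lowest in pool 1. The 3 measured skeletal muscle genes of 5 summed to 584.5, 597.8 and 451.4, with 0 lowest in pool 2. The 6 amacrine and ganglion genes summed to 12413.3, 13217.5 and 13178.4, with 3 lowest in pool 2. The part of these cells in the matrix signals was not tested.

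Probe sets of 1 gene often disagreed about the pools. Of 8 matrix genes with several measured probe sets, none kept the same full order of pools over all its sets, and for 7 the highest pool differed between sets. Lamb1 was the exception, with pool 2 highest in both.

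**Figure D4:**
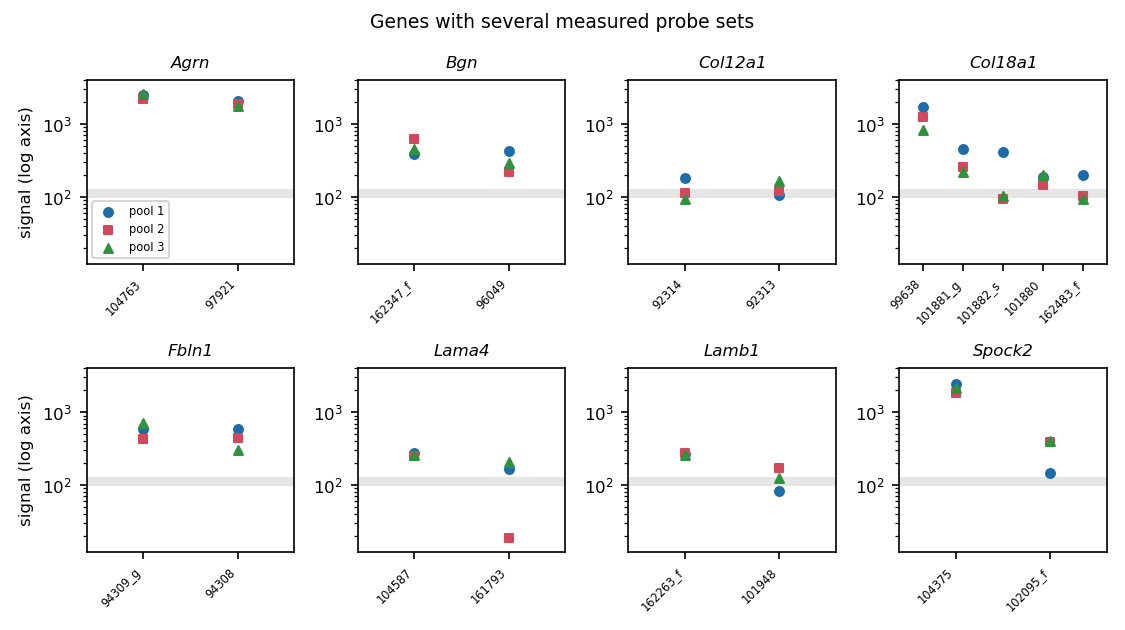
Signals of the 8 matrix genes with several measured probe sets, on a log axis in scaled intensity units, with a column per probe set, a marker per pool and the range of the 3 floors in grey. For Spock2 the circle of pool 1 is highest in the left set (2473.8) and lowest in the right one (144.9).

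Genes that receive, process or regulate matrix, were taken from a separate list of 85. Of the 65 with a probe set 38 were measured, and 30 of these were above the floor in all pools. Of the 38, 0 had a limma adjusted p below 0.05 for variability. In some pair of pools 3 (7.89%) differed by over 2-fold, counting 1 probe set per gene. The share was 13.2% of all measured probe sets, a count that holds several sets for some genes. Those 3 were Pcolce, an enhancer of procollagen cleavage, the signalling inhibitor Smad7 and the TGF-beta binding protein Ltbp4. Pool 2 was lowest for 19 of the 38 (50%), against 33.8% of all measured genes. Among receptors, Itgb1 (the integrin beta-1 chain shared by most collagen and laminin receptors) had 1906.6, 1909.5 and 2143 in pools 1, 2 and 3 from an f-class set. Dag1 (dystroglycan, the receptor for laminin, agrin and perlecan) had 1194.6, 923.4 and 834.3. The collagen-binding kinase Ddr1 had 1808.1, 1218 and 1396, and Itgb5 had 1223.4, 943.8 and 1542.5. All 11 measured receptors were above the floor in every pool, and the laminin receptor chain Itga6 was not measured.

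Genes listed for collagen and matrix processing, among them Plat, Plau, Reck and Pcolce, were measured in most cases, 12 of 14 with a probe set. Ppib (cyclophilin B, a proline isomerase) had 3061.5, 2628.1 and 3292.8 in pools 1, 2 and 3. P4hb, a subunit of prolyl 4-hydroxylase, had 1174.7, 1922.5 and 2063.3 from an r-class set, and the catalytic subunit P4ha1 had 566, 389.9 and 560.8. The proprotein convertase Furin had 1289.3, 1146.1 and 892.6. Pool 2 was lowest for 7 of the 12. Of 4 hyaluronan synthase and link protein genes with a probe set, Has3 alone was measured, at 279.4, 258.8 and 320.7, and 5 of 10 regulators were, with Smad2 at 1044, 927.1 and 843.2, Tgfb2 at 464.7, 574.5 and 613.7, and Tgfb3 at 555.8, 365.3 and 555.2. Other small matrix genes were measured for 9 of 18, among them Mfap2, a microfibril protein, at 806.5, 571.9 and 701.6.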

How the data were processed

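The authors deposited 1 linear intensity per probe set and array for 3 arrays, already scaled: the mean after trimming 2% at each end was 500.26, 500.25 and 500.26. Neither the software nor its background method is given in the sources used here. The deposited intensity values were used without further scaling.

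A blank row was dropped, and 66 control probe sets were kept out, leaving 12422. The platform annotation gave 1 symbol to 10833, several to 396 and none to 1193. The floor was the 90th percentile of 19 bacterial and yeast controls on each array. Signals under it were set to it before log2, which understates differences of low genes. A gene was represented by its measured probe set of highest mean signal.

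Variability was tested over 8327 measured probe sets in R 4.3.3 (limma 3.58.1), from the variance around each mean, set against an F distribution fitted robustly with an intensity trend, with the upper tail as p and Benjamini-Hochberg adjustment. The test was checked on simulated data in which 1 pool was changed. It called 8 of 50 probe sets changed 2-fold, 44 of 50 changed 4-fold and 4 of 8127 unchanged ones. Simulated probe sets of like signal were given the same SD, so these shares need not hold for the real arrays. There, 8 of 11 measured lens genes were called, and Bfsp1, 4.30-fold apart, was not (limma, adjusted p = 0.36). Python 3.11.15, pandas 2.3.3, numpy 2.4.6 and matplotlib 3.10.9 did the rest. Suffixes f, r, i, g and s in identifiers mark probes chosen under relaxed rules or shared with related transcripts. Promoter windows came from RefSeq, build GRCm38.p6. Arrays have no read depth, and their number limits the precision.

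The genes and lists were chosen with earlier results of these data known. Values per pool are given, by rule, for up to 4 genes of each role with the highest mean signal, for measured probe sets over 2-fold apart, and for genes with several measured probe sets, and other members are named. Alternatives changed the floor, normalization, filter, probe set choice, variance fit, fold threshold and pools used.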

Additional observations from a re-analysis of the deposited data

How the results depend on the processing

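No paired analysis was possible because all samples belong to 1 group. No matrix probe set passed limma's adjusted threshold in any of the 12 other fits. Over all tested probe sets these fits called between 0, without an intensity trend, and 52, with no filter. A fit that called no probe set at all says nothing particular to matrix genes. Each fit had 3 to 7 matrix sets at an unadjusted limma p under 0.05, and the lowest adjusted p was 0.19, for Eln with no filter. Counts over 2-fold depended on the floor. With the floor at the median control, 70 matrix probe sets were above it in all pools and 27, 21 and 20 differed over 2-fold between pools 1 and 2, 1 and 3, and 2 and 3. With the highest control as floor the first 2 of these counts were 2 and 2, with a pseudocount the last 2 were 1 and 1, and without suffixed sets that of pools 1 and 3 was 2. Among sets above the floor in all pools the counts were 1, 3 and 1, at 1.5-fold 21, 16 and 12, and at 3-fold 2, 1 and 0. The number of genes lowest in pool 2 was 18 with the highest floor and 17 among sets above the floor everywhere, out of fewer genes, and the share was between 47.0% and 54.7% over 8 alternatives chosen after the data were seen, against 33.2% to 34.4% of all genes. With no filter the median log2 differences changed sign, to -0.079 (pool 1 minus pool 2), -0.12 (pool 1 less pool 3) and 0.05 (pool 2 less pool 3). The second of these was also -0.019 with the floor at the median control and -0.011 among sets above the floor in all pools. The median SD was 0.18 to 0.30 with 1 pool left out, lowest without pool 2. Signals near the floor limit every statement on low genes.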

Other observations

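A probe set assigned to both Pald1 and the thrombospondin gene Thbs1 was left out because it has several symbols. Its signals were 126.3 in pool 1, above the floor, and 71 and 89.3 in pools 2 and 3, under it.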
